A study of Mus musculus with 6 samples.

Results

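The potassium and pacemaker channel genes were taken as every row of the count table whose gene symbol starts with Kcn or Hcn followed by a letter or a digit, without Kcnq1ot1, a non-coding transcript. The rule found 102 of the 49315 genes in the table and used no measured value. By the letter after Kcn, 40 are voltage-gated pore-forming subunits (Kcna to Kcnd, Kcnf to Kcnh, Kcnq, Kcns and Kcnv). Others are 12 accessory subunits (Kcnab, Kcne and Kcnip), 15 inward rectifiers (Kcnj), 14 tandem pore channels (Kcnk) and 4 pacemaker channels (Hcn). The family called calcium- or sodium-activated here (Kcnm, Kcnn, Kcnt and Kcnu) holds 12, and its name does not describe every member. A further 4 are transcripts named as lying opposite to a channel gene, and Kcnrg was placed in none of these groups.

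RNA was sequenced from mid-ventricular heart tissue of adult mice with an endothelial-specific TET2 knockout (TET2KO, n = 3 mice) and of wild-type mice (WT, n = 3 mice). All 6 mice had received Angiotensin II, the peptide hormone that raises blood pressure, at 1 mg/kg/day for 28 days from minipumps under the skin, so no group without the hormone was compared. No source used here names the driver of the endothelial deletion, the strain or the exact age. The tissue is a mixture of cell types, in which the deletion is meant to touch only the endothelial cells, and fewer cells of a type cannot be told apart from less RNA per cell in any value below.

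Potassium channels carry the outward currents that end the cardiac action potential and hold the resting voltage of the muscle cell. In the mouse ventricle a fast transient outward current, built of Kcnd pores and the accessory subunit Kcnip2, does most of the early repolarization, while the Kcnj inward rectifiers set the resting voltage. Pacemaker channels open on hyperpolarization and carry the inward current that drives spontaneous beating in conduction tissue. In the vessel wall, ATP-sensitive channels with Kcnj8 pores and calcium-activated channels control the tone of smooth muscle.

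Library totals lay between 26810691 and 30418909 reads in the libraries labelled TET2KO, and between 22124844 and 26569073 in those labelled WT. Tet2 itself averaged 11.0 ± 3.35 CPM (the read count of a gene scaled to the depth of its library with TMM factors) in the libraries labelled TET2KO, against 3.90 ± 0.707 CPM in those labelled WT (SD, n = 3 each), a log2 fold change of 1.49 ± 0.29 (SE; edgeR adjusted p = 0.0065). That goes against the labels, and a whole-tissue count does not isolate the endothelial cells; libraries are therefore called by their labels throughout. Over all genes, fold changes followed transcript length: the median log2 fold change was -1.29 in the 1435 shortest of 14341 genes and 1.38 in the 1434 longest. The channel genes were for this reason tested in 2 fits of edgeR's quasi-likelihood test, as counted and with a smooth trend on transcript length and GC content taken out of every library, and the Tet2 difference in the second fit was 0.27 ± 0.17 (SE; edgeR adjusted p = 0.21). The second fit also takes out any biological difference that follows length or GC content, and no value here separates these. Summed CPM of 8 ventricular muscle markers was 49500 to 54500 in TET2KO-labelled and 75200 to 92800 in WT-labelled libraries. Of the 8, as counted 3 were higher (Myh6, Ryr2 and Actc1) and 4 were lower, with Myl2 and Myl3 among them, and with the trend removed 4 were higher and 2 were lower. The atrial marker Myl7 was low, with 0.054, 0.567 and 0.0953 CPM in TET2KO-labelled and 1.97, 2.86 and 0.952 CPM in WT-labelled libraries. It was lower as counted (-3.05 ± 0.77, SE; edgeR adjusted p = 0.012) and with the trend removed (-1.92 ± 0.65; edgeR adjusted p = 0.037). The trend-removed call was lost without TET2KO replicates 1 or 3 or WT replicates 1 or 2, left out in turn.

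Of the 102 channel genes, 44 had enough reads to be tested. As counted, 21 of them were higher in the libraries labelled TET2KO and 3 were lower, at a Benjamini-Hochberg adjusted p under 0.05, while 20 did not pass. Among all 14370 tested genes 33.4% were called higher and 29.4% lower, so the 47.7% of channel genes called higher stood above that background and the 6.82% called lower stood below it. Both shares depend on the count filter, which 10 of the 44 passed in all 3 TET2KO-labelled libraries but not in all WT-labelled ones. The reverse held for 0 of them, and 6 of those 10 were called higher. With the length and GC trend removed, 8 channel genes were higher and 7 were lower, or 18.2% and 15.9% of the 44, against a background of 21.9% and 24.3%. Both shares in that fit lay under those of all genes. In either direction 62.9% of all tested genes were called as counted and 46.2% with the trend removed. The median log2 fold change of the 44 was 0.77 as counted, beside 0.05 over all tested genes, and 0.04 with the trend removed, beside -0.03. In 27 of the 44, or 61.4%, the 3 TET2KO-labelled libraries did not overlap the 3 WT-labelled ones in CPM, which held for 73.5% of all tested genes. They lay above the WT-labelled ones in 23 (38% of all tested genes) and below them in 4 (35.5% of all tested genes).

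The counts of falls rest on few libraries. As counted, 1 channel gene was lower without TET2KO replicate 3, WT replicate 1 or WT replicate 3, left out in turn, and 5 were without TET2KO replicate 2, while the number higher stayed between 15 and 30. In the trend-removed fit 3 to 5 were higher without TET2KO replicate 3 or any single WT replicate, and 2 or 3 were lower without any single library other than TET2KO replicate 2. When counts were scaled to the library totals alone, the median over all genes became 0.47 and 74.2% of all calls were higher, beside 53.2% with TMM scaling. Under it 25 channel genes were higher and 1 was lower (Kcnj8, -0.45; edgeR adjusted p = 0.048).

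The genes called in both fits in the same direction were fewer. All 8 genes that were higher with the trend removed, among them Kcnd2, Kcnd3, Kcnq1, Kcnip2, Kcnj15, Kcnk3 and Hcn2, were also higher as counted. Kcnj8 and Kcne1 were lower in both fits. Kcnn1 passed in opposite directions. Across the 21 fits that were made of these data, including those that leave out a library, 4 channel genes passed in the same direction every time: Kcnd2, Kcnq1 and Hcn2 were higher and Kcnj8 was lower in the libraries labelled TET2KO.

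**Figure D1:**
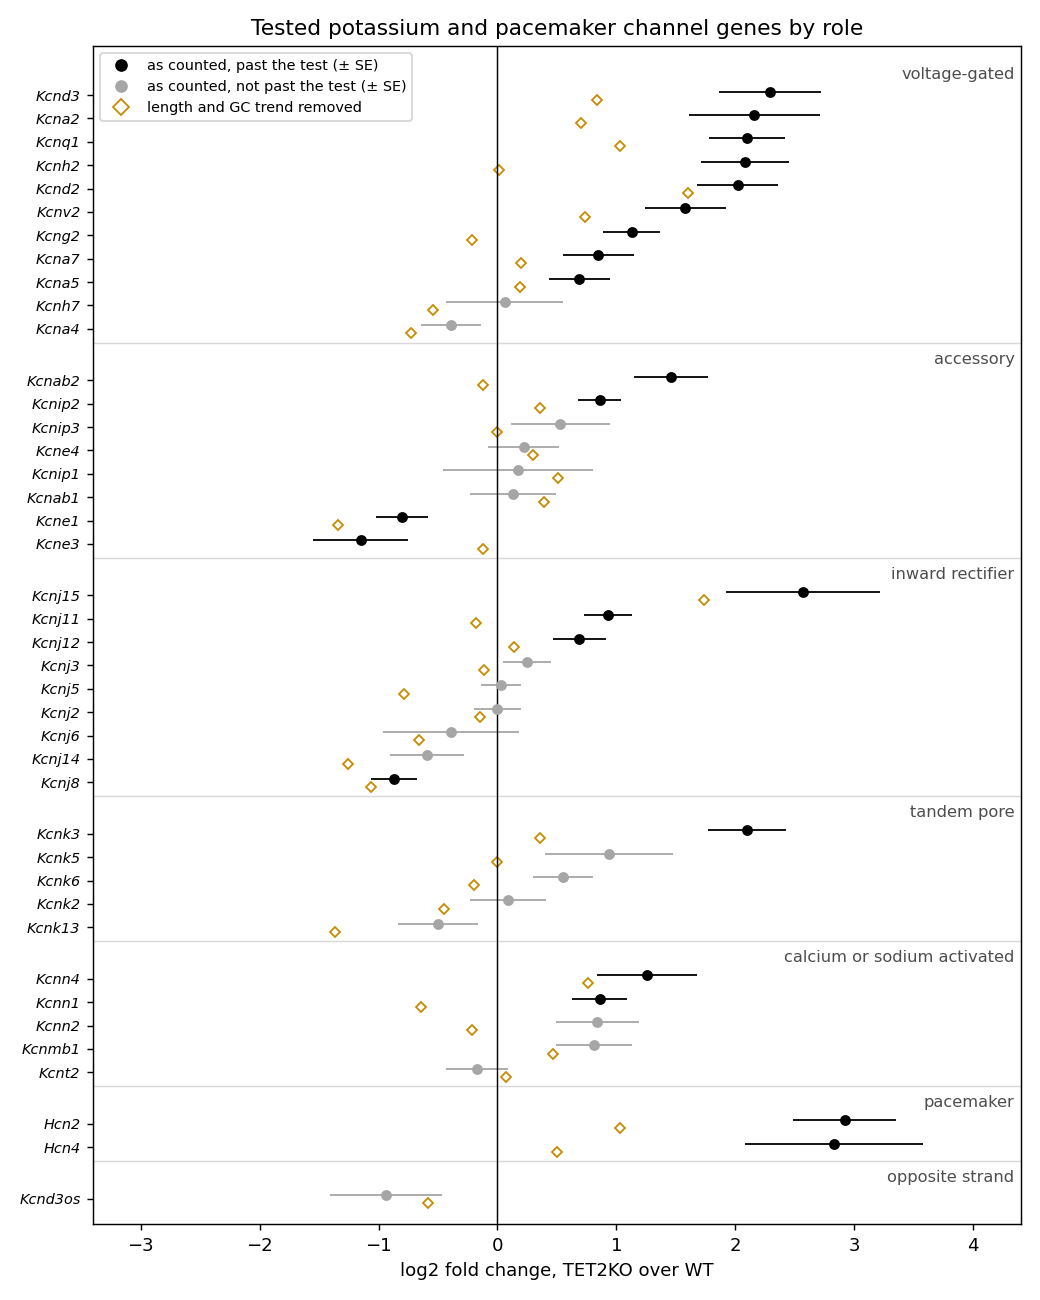
Log2 fold change of TET2KO over WT for the tested channel genes described here, grouped by role and sorted within each role. Filled circles with bars give the fit as counted with its standard error, black where it passed the test, and open diamonds give the fit with the length and GC trend removed. Most voltage-gated genes lie right of 0 as counted, and the diamonds of Kcnh2, Kcng2 and, among the tandem pore genes, Kcnk3 lie between -0.21 and 0.36.

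The promoters of 3 of these 4 genes are shown because TET2 is an enzyme that oxidizes methylated cytosine, which in mammals lies mostly in CG pairs. Each sequence is the 250 bases before the transcript start on the gene's own strand, from RefSeq (GRCm38.p6), with every CG in capitals. Kcnd2 lies at chr6:21215096-21215345 (plus strand), Hcn2 at chr10:79716384-79716633 (plus strand) and Kcnj8 at chr6:142571615-142571864 (minus strand).
Kcnd2: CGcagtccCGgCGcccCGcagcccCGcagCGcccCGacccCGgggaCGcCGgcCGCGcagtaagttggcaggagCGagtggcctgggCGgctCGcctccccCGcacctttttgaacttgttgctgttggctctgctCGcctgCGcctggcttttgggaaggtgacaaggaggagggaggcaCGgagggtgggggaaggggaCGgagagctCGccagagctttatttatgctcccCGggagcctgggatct
Hcn2: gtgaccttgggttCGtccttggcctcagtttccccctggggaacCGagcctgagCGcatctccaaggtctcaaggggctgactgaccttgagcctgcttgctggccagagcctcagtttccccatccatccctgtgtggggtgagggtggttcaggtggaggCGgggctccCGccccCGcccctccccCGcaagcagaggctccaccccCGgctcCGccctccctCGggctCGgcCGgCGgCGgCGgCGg
Kcnj8: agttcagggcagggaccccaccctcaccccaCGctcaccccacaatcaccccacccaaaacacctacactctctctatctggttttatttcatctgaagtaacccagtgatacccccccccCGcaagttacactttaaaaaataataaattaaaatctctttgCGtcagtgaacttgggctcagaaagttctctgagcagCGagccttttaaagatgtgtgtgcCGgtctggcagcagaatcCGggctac
The motif searched was CG, which reads the same on both strands. Kcnd2 holds 22, a number that 14.6% of all promoters in the RefSeq table reach or pass, Hcn2 holds 16, which 25.6% reach or pass, and Kcnj8 holds 6, which 50.5% reach or pass. Among the 73 channel genes found in the table the median was 9.0 CG pairs, beside 6.0 over 27025 promoters. The 14 of them that were called higher as counted had a median of 14.5, the 2 called lower had 4.5, and the 16 that were tested without passing had 7.5. These cover 14 of the 21 channel genes called higher and 2 of the 3 called lower. No such split was made for all genes, so no background stands beside these medians. Over all tested genes the fold change also went with the GC content of the transcript (Spearman's rho 0.26). The counts describe sequence only, since no methylation was measured.

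The voltage-gated pore subunits were the group with the most tested genes and the most called higher. Of 40 such genes 13 were tested, 11 were higher as counted, none was lower (0), and 2 (Kcna4 and Kcnh7) did not pass; with the trend removed 4 were higher and 1 was lower. Their median log2 fold change was 2.02 as counted and 0.27 with the trend removed, beside 0.05 and -0.03 over all tested genes. Of all tested genes 33.4% were called higher and 29.4% lower as counted, and 21.9% and 24.3% with the trend removed.

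Kcnd2, the pore of the fast transient outward current (chromosome 6, positions 21215503 to 21729805, plus strand, 6 exons in the transcript used), had 12.7, 5.44 and 10.1 CPM in TET2KO-labelled replicates 1 to 3, against 2.35, 2.49 and 2.13 CPM in WT-labelled replicates 1 to 3. Every TET2KO-labelled library was above every WT-labelled one, and replicate 2 was the lowest of its group. The log2 fold change was 2.02 ± 0.34 (SE; edgeR adjusted p = 0.0065), and it was 1.60 ± 0.26 with the trend removed (edgeR adjusted p = 0.0041), the largest among the genes higher in both fits after Kcnj15. The promoter printed above with 22 CG pairs belongs to this gene. Kcnd3, the related pore of the same current, had 10.2, 3.57 and 6.32 CPM in TET2KO-labelled libraries and 1.49, 1.64 and 0.952 CPM in WT-labelled libraries. Its log2 fold change was 2.29 ± 0.43 (SE; edgeR adjusted p = 0.0065), and 0.84 ± 0.22 with the trend removed (edgeR adjusted p = 0.014). The trend-removed call was lost without TET2KO replicate 1 (0.73; edgeR adjusted p = 0.053) and without WT replicate 3 (0.70; edgeR adjusted p = 0.055). Kcna4, the pore of the slow transient outward current, had 1.56, 1.33 and 1.40 CPM in TET2KO-labelled and 1.78, 1.84 and 2.02 CPM in WT-labelled libraries. It did not pass as counted (-0.39 ± 0.25, SE; edgeR adjusted p = 0.20) and was lower with the trend removed (-0.73 ± 0.23; edgeR adjusted p = 0.03), a call that was lost without any single library other than TET2KO replicate 2 (-0.65 to -0.80; edgeR adjusted p = 0.056 to 0.093).

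The delayed rectifier pores Kcnq1 and Kcnh2 were higher as counted. Kcnq1, the pore of the slow delayed rectifier, had 40.0, 16.4 and 28.4 CPM in TET2KO-labelled libraries, against 7.34, 6.62 and 5.77 CPM in WT-labelled libraries. The groups did not overlap, and the log2 fold change was 2.10 ± 0.32 (SE; edgeR adjusted p = 0.0065), or 1.03 ± 0.17 with the trend removed (edgeR adjusted p = 0.0041). Kcnq1ot1, the antisense transcript at this locus, shares 121 exonic bases with Kcnq1 (2.96% of its exonic bases). No source used here states whether the counting used strand, so reads in such stretches cannot be told apart. Kcnq1ot1 did not pass as counted (0.29 ± 0.36, SE; edgeR adjusted p = 0.50), and with the trend removed it was higher (1.28 ± 0.28; edgeR adjusted p = 0.0075), a call that was lost without WT replicate 3 (edgeR adjusted p = 0.054). Kcnh2, the pore of the rapid delayed rectifier, known as hERG in humans, had 51.1, 18.9 and 30.4 CPM in TET2KO-labelled libraries, against 7.15, 9.97 and 6.55 CPM in WT-labelled libraries. Its groups did not overlap either (2.08 ± 0.37, SE; edgeR adjusted p = 0.0065), but with the trend removed the difference was 0.01 ± 0.19 (edgeR adjusted p = 0.96).

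Kcna5, the pore of a rapidly activating delayed rectifier in the mouse heart, was the only gene of the 21 called higher in which TET2KO replicate 2 was not the lowest of its group. It had 31.9, 37.3 and 25.7 CPM in TET2KO-labelled libraries and 15.6, 26.9 and 16.1 CPM in WT-labelled libraries, so the groups overlapped. The log2 fold change was 0.69 ± 0.26 (SE; edgeR adjusted p = 0.045), it did not pass without TET2KO replicate 1 (0.72; edgeR adjusted p = 0.063), TET2KO replicate 3 (0.86; edgeR adjusted p = 0.052), WT replicate 1 (0.54; edgeR adjusted p = 0.17) or WT replicate 3 (0.57; edgeR adjusted p = 0.16), and it was 0.19 ± 0.26 with the trend removed (edgeR adjusted p = 0.56). Kcna7, a Shaker-type pore found in skeletal and heart muscle, was higher as counted at a low level (2.91 ± 0.828 CPM in TET2KO-labelled and 1.63 ± 0.290 CPM in WT-labelled libraries, SD, n = 3 each), with a log2 fold change of 0.85 ± 0.30 (SE; edgeR adjusted p = 0.041). Its call was lost without any single library other than TET2KO replicate 2 (0.64 to 0.99; edgeR adjusted p = 0.062 to 0.13), and the trend-removed value was 0.20 ± 0.23 (edgeR adjusted p = 0.50).

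The 2 tested silent subunits, Kcng2 and Kcnv2, which form no channel alone and modify other voltage-gated pores, were also higher as counted. Kcng2 had 90.5, 53.9 and 95.7 CPM in TET2KO-labelled and 31.7, 39.1 and 38.9 CPM in WT-labelled libraries, the highest CPM of any tested voltage-gated gene in both groups (1.13 ± 0.24, SE; edgeR adjusted p = 0.0071). Its trend-removed difference was -0.21 ± 0.13 (edgeR adjusted p = 0.21), and 9.10% of its exonic bases overlap a transcript on the opposite strand. Kcnv2 was 1.58 ± 0.34 higher on the log2 scale (SE; edgeR adjusted p = 0.0072) and did not pass with the trend removed (0.74 ± 0.27; edgeR adjusted p = 0.05), a value that passed without TET2KO replicate 2 (0.85; edgeR adjusted p = 0.017). Outside the genes with a known cardiac role, Kcna2, a Shaker-type pore best known from neurons, averaged 0.928 ± 0.407 CPM in TET2KO-labelled and 0.202 ± 0.0969 CPM in WT-labelled libraries (2.16 ± 0.55, SE; edgeR adjusted p = 0.012). It did not pass with the trend removed (0.70 ± 0.47; edgeR adjusted p = 0.25).

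**Figure D2:**
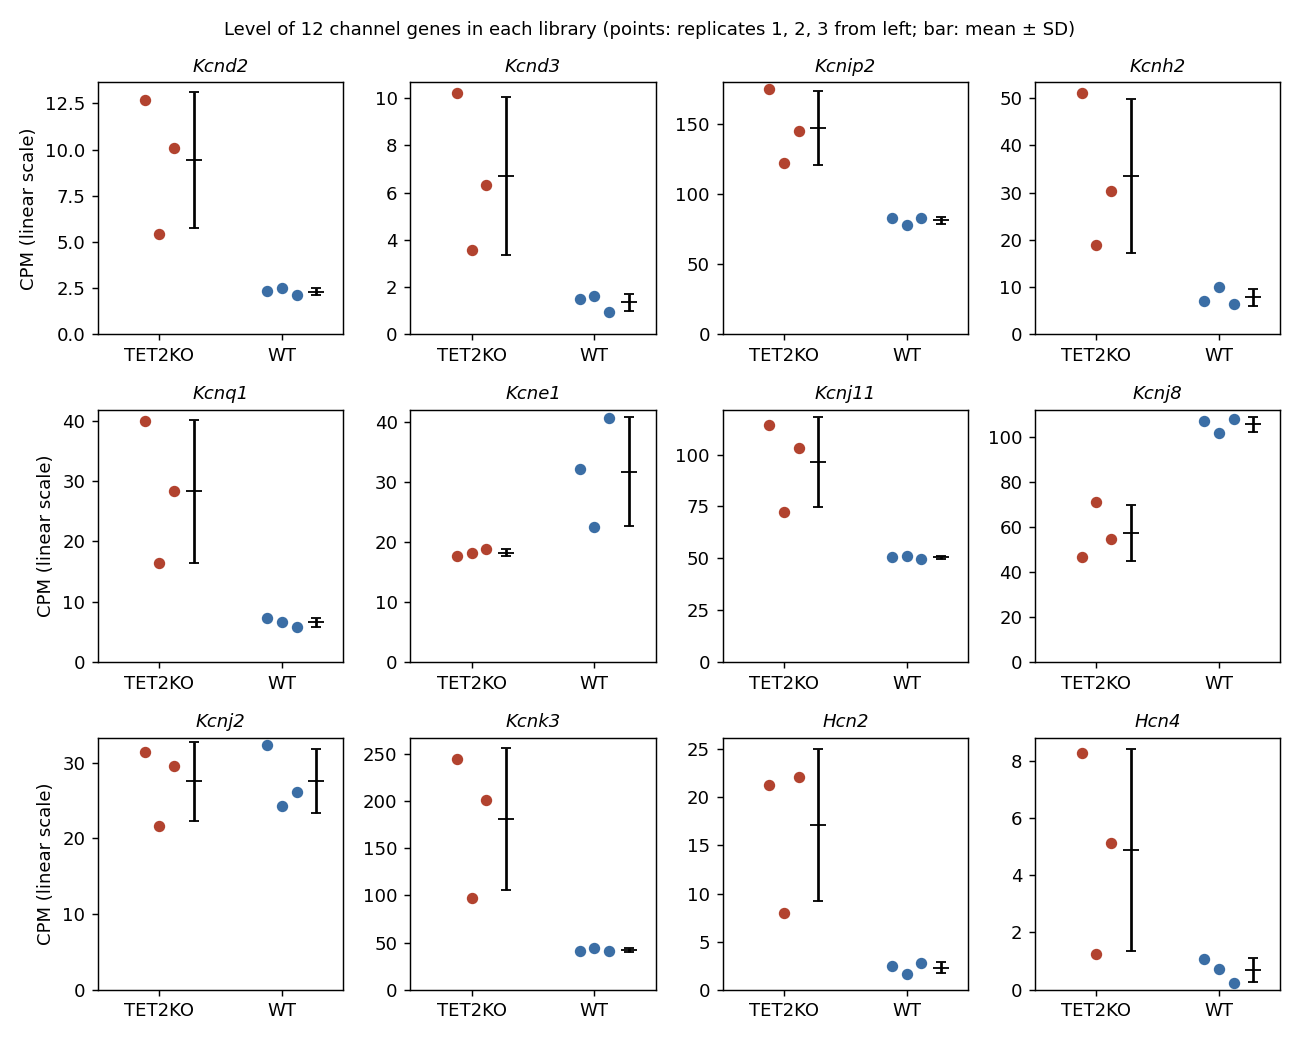
CPM of 12 channel genes in each library on linear axes from 0, with TET2KO-labelled libraries left of WT-labelled ones, replicates 1 to 3 from the left as points and a bar for the mean ± SD. Kcnd2, Kcnq1 and Hcn2 lie higher and Kcnj8 lies lower in all 3 TET2KO-labelled libraries, while Kcnj2 averages 27.6 CPM in both groups.

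The accessory subunits moved in both directions. Of 12 such genes 8 were tested, and as counted 2 were higher (Kcnip2 and Kcnab2), 2 were lower (Kcne1 and Kcne3) and 4 did not pass. With the trend removed 1 was higher (Kcnip2) and 1 was lower (Kcne1).

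Kcnip2, the calcium-binding subunit that Kcnd pores need for a normal transient outward current, had 175, 122 and 145 CPM in TET2KO-labelled libraries, against 83.0, 78.1 and 82.9 CPM in WT-labelled libraries. The WT-labelled libraries were within a narrow range and all lay below the TET2KO-labelled ones (0.86 ± 0.18, SE; edgeR adjusted p = 0.007). The trend-removed difference was 0.36 ± 0.11 (edgeR adjusted p = 0.025), and it did not pass without TET2KO replicate 3 or any single WT replicate (0.31 to 0.42; edgeR adjusted p = 0.057 to 0.12). Kcne1, the small membrane subunit that slows Kcnq1 into the slow delayed rectifier, had 17.6, 18.2 and 18.9 CPM in TET2KO-labelled libraries, against 32.1, 22.4 and 40.6 CPM in WT-labelled libraries. In CPM the TET2KO-labelled libraries were nearly level and all lay below the scattered WT-labelled ones (-0.80 ± 0.22, SE; edgeR adjusted p = 0.017). The call was lost without TET2KO replicate 3 (-0.78; edgeR adjusted p = 0.056), WT replicate 1 (-0.80; edgeR adjusted p = 0.057) or WT replicate 3 (-0.59; edgeR adjusted p = 0.07). Scaling to library totals alone lost it too (-0.35, edgeR adjusted p = 0.16). In TPM the groups overlapped, at 14.9, 12.7 and 14.3 in TET2KO-labelled and 15.6, 12.1 and 18.5 in WT-labelled libraries. The fall in Kcne1 was larger with the trend removed (-1.34 ± 0.22; edgeR adjusted p = 0.0041) and held there without any single library.

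Kcne3, another member of the Kcne family, had 0.594, 0.734 and 0.889 CPM in TET2KO-labelled and 2.54, 1.14 and 1.23 CPM in WT-labelled libraries, with a log2 fold change of -1.15 ± 0.40 (SE; edgeR adjusted p = 0.036). Its call was lost without TET2KO replicate 1 (-0.97; edgeR adjusted p = 0.11), TET2KO replicate 3 (-1.26; edgeR adjusted p = 0.074), WT replicate 1 (-0.69; edgeR adjusted p = 0.15) or WT replicate 3 (-1.32; edgeR adjusted p = 0.053), and the trend-removed value was -0.12 ± 0.39 (edgeR adjusted p = 0.81). Kcnab2, a cytoplasmic beta subunit of Shaker-type channels, averaged 1.17 ± 0.174 CPM in TET2KO-labelled and 0.425 ± 0.0296 CPM in WT-labelled libraries (1.46 ± 0.31, SE; edgeR adjusted p = 0.007), and -0.12 ± 0.37 with the trend removed (edgeR adjusted p = 0.81). Its relative Kcnab1 (0.13 ± 0.36; edgeR adjusted p = 0.77) and the Kcnq1 regulator Kcne4 (0.22 ± 0.30; edgeR adjusted p = 0.54) did not pass, nor did they with the trend removed (Kcnab1 0.39 ± 0.32, edgeR adjusted p = 0.34, and Kcne4 0.30 ± 0.25, edgeR adjusted p = 0.36). Kcne2, whose protein joins the human hERG channel, was under the count filter, with 0, 0 and 0 reads in TET2KO-labelled and 3, 0 and 0 in WT-labelled libraries.

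The inward rectifiers also moved in both directions. Of 15 Kcnj genes 9 were tested: 3 were higher as counted (Kcnj11, Kcnj12 and Kcnj15), 1 was lower (Kcnj8) and 5 did not pass, with a median log2 fold change of 0.03. In the trend-removed fit 1 was higher (Kcnj15) and 3 were lower (Kcnj8, Kcnj5 and Kcnj14).

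Kcnj8 and Kcnj11 encode the 2 pores of ATP-sensitive potassium channels, Kcnj8 mainly in vascular smooth muscle and pericytes and Kcnj11 in ventricular muscle. Kcnj8 (chromosome 6, positions 142564837 to 142571614, minus strand, 3 exons) had 46.6, 71.0 and 54.9 CPM in TET2KO-labelled libraries, against 107, 102 and 108 CPM in WT-labelled libraries. In CPM all 3 TET2KO-labelled libraries lay below the WT-labelled ones. Replicate 2 was here the highest of its group, the reverse of its place among most genes that rose. The log2 fold change was -0.87 ± 0.19 (SE; edgeR adjusted p = 0.0073) as counted and -1.06 ± 0.18 with the trend removed (edgeR adjusted p = 0.0041). Scaled to library totals alone it was -0.45 (edgeR adjusted p = 0.048). In TPM the groups overlapped, at 49.4, 62.2 and 52.1 in TET2KO-labelled and 64.9, 68.7 and 61.5 in WT-labelled libraries. The promoter of Kcnj8, printed above, held 6 CG pairs. Beside this fall, summed CPM of 5 pericyte markers was 966 to 1610 in TET2KO-labelled and 1830 to 2050 in WT-labelled libraries. That sum rests mostly on Rgs5, and of the 5 markers 2 were called higher (Pdgfrb and Notch3) and 1 lower (Rgs5). Of 5 smooth muscle markers, summed at 292 to 343 CPM in TET2KO-labelled and 234 to 384 CPM in WT-labelled libraries, 2 were higher and 1 was lower; the part of either cell type in the Kcnj8 difference was not tested.

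Kcnj11 had 114, 72.2 and 103 CPM in TET2KO-labelled libraries, against 50.6, 51.0 and 49.8 CPM in WT-labelled libraries. It was higher as counted (0.93 ± 0.20, SE; edgeR adjusted p = 0.007) with groups that did not overlap, and the trend-removed difference had the opposite sign and did not pass (-0.18 ± 0.11; edgeR adjusted p = 0.19). Kcnj2 and Kcnj12 form the classical inward rectifier of ventricular muscle. Kcnj2 had 31.4, 21.6 and 29.6 CPM in TET2KO-labelled and 32.3, 24.3 and 26.1 CPM in WT-labelled libraries, which overlapped fully (0.00 ± 0.20, SE; edgeR adjusted p = 1.0), and it did not pass with the trend removed either (-0.15 ± 0.17; edgeR adjusted p = 0.50). Kcnj12 had 17.3, 11.4 and 14.2 CPM in TET2KO-labelled and 7.49, 9.65 and 9.41 CPM in WT-labelled libraries. Its rise of 0.69 ± 0.22 (SE; edgeR adjusted p = 0.028) was lost without any single library other than TET2KO replicate 2 (0.56 to 0.75; edgeR adjusted p = 0.065 to 0.11) and was 0.14 ± 0.15 with the trend removed (edgeR adjusted p = 0.47).

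Kcnj3 and Kcnj5 together form the channel that acetylcholine opens in atrial and nodal muscle. Kcnj5 had 58.8, 69.9 and 56.3 CPM in TET2KO-labelled and 69.4, 60.0 and 52.4 CPM in WT-labelled libraries, and Kcnj3 had 31.9, 30.4 and 29.0 CPM in TET2KO-labelled and 31.8, 25.1 and 19.6 CPM in WT-labelled libraries. The groups overlapped for both, and neither passed as counted (Kcnj5 0.03 ± 0.17, SE, edgeR adjusted p = 0.91, and Kcnj3 0.25 ± 0.20, SE, edgeR adjusted p = 0.28). With the trend removed Kcnj5 was lower (-0.79 ± 0.23; edgeR adjusted p = 0.02), a call that was lost without TET2KO replicate 3, WT replicate 1 or WT replicate 2 (-0.67 to -0.83; edgeR adjusted p = 0.051 to 0.084). Kcnj3 did not pass there either (-0.11 ± 0.15; edgeR adjusted p = 0.59), and 31.1% of the exonic bases of Kcnj3 overlap a transcript on the opposite strand. Of the 4 atrial markers that were tested 0 were higher and 3 were lower as counted, and 0 were higher and 1 was lower with the trend removed. Bmp10, an atrial marker under the count filter, had 4, 0 and 1 reads in TET2KO-labelled and 0, 0 and 0 in WT-labelled libraries. Sln, the other atrial marker under it, had 1, 1 and 0 reads in TET2KO-labelled and 0, 24 and 11 in WT-labelled libraries. The part of atrial tissue in these values was not tested. Kcnj15 had the largest rise among the Kcnj genes (2.57 ± 0.65, SE; edgeR adjusted p = 0.012), with 1.22 ± 0.684 CPM in TET2KO-labelled libraries against 0.196 ± 0.123 CPM in WT-labelled libraries, where it had 6, 6 and 1 reads. In the trend-removed fit it was 1.74 ± 0.53 higher (edgeR adjusted p = 0.027), and that call was lost without any single library other than TET2KO replicate 2 (1.39 to 2.05; edgeR adjusted p = 0.055 to 0.087). Kcnj14 was lower with the trend removed (-1.26 ± 0.36; edgeR adjusted p = 0.021), which was lost in the same 5 cases (-1.01 to -1.30; edgeR adjusted p = 0.056 to 0.08), and as counted it passed without TET2KO replicate 2 (-0.89; edgeR adjusted p = 0.011).

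Among the tandem pore channels, which carry background currents, Kcnk3 was the single gene called higher. Of 14 such genes 5 were tested and 4 did not pass as counted. Kcnk3, an acid-sensitive background channel of heart muscle and pulmonary artery, had 245, 97.5 and 201 CPM in TET2KO-labelled libraries, against 41.4, 44.4 and 40.8 CPM in WT-labelled libraries. It ranked first of all channel genes by mean TPM in the TET2KO-labelled group (115 ± 56.2) and sixth of them in the WT-labelled group (16.8 ± 2.17 TPM). The log2 fold change of 2.10 ± 0.33 (SE; edgeR adjusted p = 0.0065) became 0.36 ± 0.10 with the trend removed (edgeR adjusted p = 0.018), and that smaller value did not pass without TET2KO replicate 3 or any single WT replicate (0.33 to 0.37; edgeR adjusted p = 0.07 to 0.094). The stretch-sensitive Kcnk2 (0.09 ± 0.32; edgeR adjusted p = 0.83) and the vascular channel Kcnk6 (0.55 ± 0.25; edgeR adjusted p = 0.085) did not pass, nor did they with the trend removed (Kcnk2 -0.45 ± 0.26, edgeR adjusted p = 0.19, and Kcnk6 -0.20 ± 0.22, edgeR adjusted p = 0.47). As counted Kcnk6 passed without TET2KO replicate 2 (0.63; edgeR adjusted p = 0.039). Kcnk13 did not pass as counted (-0.50 ± 0.34; edgeR adjusted p = 0.22) and was lower with the trend removed (-1.37 ± 0.36; edgeR adjusted p = 0.015). That call was lost without TET2KO replicates 1 or 3 or WT replicates 1 or 3, left out in turn (-1.13 to -1.37; edgeR adjusted p = 0.052 to 0.068).

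The calcium-activated channel genes were low and their calls were unsteady. Of 12 calcium- or sodium-activated genes 5 were tested, 2 were higher as counted (Kcnn1 and Kcnn4) and none was lower (0). Kcnn1, a small-conductance channel, had 12.2, 8.41 and 9.84 CPM in TET2KO-labelled and 5.52, 6.42 and 4.87 CPM in WT-labelled libraries. As counted it was higher (0.86 ± 0.23, SE; edgeR adjusted p = 0.013) in every TET2KO-labelled library, and with the trend removed it was lower (-0.64 ± 0.22; edgeR adjusted p = 0.039). The first call was lost without WT replicate 1 (0.84; edgeR adjusted p = 0.056) or WT replicate 3 (0.76; edgeR adjusted p = 0.061), and the second without any single library other than TET2KO replicate 2 (-0.51 to -0.70; edgeR adjusted p = 0.074 to 0.15). Kcnn2, the small-conductance channel best known from atrial muscle, averaged 4.48 ± 1.85 CPM in TET2KO-labelled and 2.51 ± 0.401 CPM in WT-labelled libraries and did not pass (0.84 ± 0.35, SE; edgeR adjusted p = 0.066), but did without TET2KO replicate 2 (1.11; edgeR adjusted p = 0.00088). Its trend-removed value had the opposite sign and did not pass (-0.21 ± 0.21; edgeR adjusted p = 0.44). Kcnn4, the intermediate-conductance channel of endothelium and blood cells, averaged 0.530 ± 0.142 CPM in TET2KO-labelled and 0.218 ± 0.0432 CPM in WT-labelled libraries (1.26 ± 0.42, SE; edgeR adjusted p = 0.031), a call lost without any single library other than TET2KO replicate 2 (1.11 to 1.34; edgeR adjusted p = 0.083 to 0.11). It did not pass with the trend removed (0.76 ± 0.41; edgeR adjusted p = 0.16), with no count filter (edgeR adjusted p = 0.11) or with DESeq2 (adjusted p = 0.14).

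Endothelial markers were read beside Kcnn4. Summed CPM of the 6 was 321 to 735 in TET2KO-labelled and 173 to 223 in WT-labelled libraries. As counted 5 were higher and 1 was lower (Emcn), and with the trend removed 4 were higher and 0 lower. The part of endothelial cells in the Kcnn4 difference was not tested. The endothelial small-conductance channel Kcnn3 was under the count filter, with 27, 6 and 18 reads in TET2KO-labelled and 8, 2 and 1 in WT-labelled libraries. Kcnma1, the pore of the large-conductance channel, was under it too, with 7, 8 and 7 reads in TET2KO-labelled and 0, 13 and 2 in WT-labelled libraries. Its smooth muscle subunit Kcnmb1 averaged 1.93 ± 0.279 CPM in TET2KO-labelled and 1.09 ± 0.335 CPM in WT-labelled libraries (0.81 ± 0.32, SE; edgeR adjusted p = 0.055), and passed without TET2KO replicate 2 (0.90; edgeR adjusted p = 0.025), while the trend-removed value was 0.47 ± 0.27 (edgeR adjusted p = 0.18).

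The pacemaker channels had the largest rises of all the channel genes as counted. Of 4 Hcn genes 3 were tested, 2 were higher and 1 did not pass. Hcn2, the pacemaker channel with the broadest expression in the heart (chromosome 10, positions 79716634 to 79736108, plus strand, 8 exons), had 21.3, 7.97 and 22.1 CPM in TET2KO-labelled libraries, against 2.45, 1.64 and 2.74 CPM in WT-labelled libraries. The lowest TET2KO-labelled library was well above the highest WT-labelled one, and the log2 fold change was 2.92 ± 0.43 (SE; edgeR adjusted p = 0.0065), the largest among the 44. The trend-removed value was 1.03 ± 0.23 (edgeR adjusted p = 0.008) and held without any single library. Hcn4, the main pacemaker channel of the sinus node, had 8.28, 1.23 and 5.11 CPM in TET2KO-labelled and 1.06, 0.736 and 0.224 CPM in WT-labelled libraries. TET2KO replicate 2 lay close to the highest WT-labelled library (2.83 ± 0.75, SE; edgeR adjusted p = 0.014). The call was lost without WT replicate 3 (2.44; edgeR adjusted p = 0.052), and the trend-removed value was 0.50 ± 0.40 (edgeR adjusted p = 0.33).

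Conduction tissue markers were read beside Hcn2 and Hcn4. Summed CPM of the 6 markers was 4.07 to 23.0 in TET2KO-labelled and 2.69 to 3.89 in WT-labelled libraries, lowest in TET2KO replicate 2 within its group. That library was also lowest for both Hcn genes, and for 20 of the 21 channel genes called higher. Its place is thus not particular to these genes. Of the 4 that were tested 3 were higher (Tbx3, Cntn2 and Cacna1g) and 0 lower as counted, and 1 (Cacna1g) was higher with the trend removed. Shox2, the other tested marker, went the other way without passing (-0.50 ± 0.53, SE; edgeR adjusted p = 0.43). With the trend removed Shox2 did not pass either (-0.66 ± 0.51; edgeR adjusted p = 0.31). Isl1, which marks the sinus node, had 1 read in TET2KO replicate 1 and 0 in every other library. The part of conduction tissue in the Hcn differences was not tested.

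Ratios of pairs of channel genes that work together were compared within each library, where the scaling of the library cancels. TPM, which divides by gene length, was used, and each of 8 pairs was tested by a two-sided exact permutation test over the 6 libraries, which cannot go below p = 0.1. The ratio of Kcnq1 to Kcne1 was 1.77, 0.703 and 1.17 in TET2KO-labelled libraries, against 0.179, 0.230 and 0.111 in WT-labelled libraries. The pore was above its subunit in TET2KO-labelled replicates 1 and 3 and below it in TET2KO-labelled replicate 2 and in every WT-labelled library. The log2 difference of the ratio was 2.77 (exact p = 0.1, adjusted over the 8 pairs 0.16), and 2.32 with the trend removed. Both transcripts are of nearly the same length, at 3029 and 3174 nt. The ratio of Kcnj8 to Kcnj11 was 0.591, 1.42 and 0.766 in TET2KO-labelled libraries, against 3.04, 2.88 and 3.11 in WT-labelled libraries, a log2 difference of -1.80 (exact p = 0.1, adjusted 0.16) and of -0.91 with the trend removed. Kcnj8 was thus the more abundant pore in every WT-labelled library and in TET2KO replicate 2.

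The ratio of Kcnip2 to Kcnd2 was 20.4, 33.2 and 21.2 in TET2KO-labelled libraries, against 52.3, 46.4 and 57.8 in WT-labelled libraries. Both genes were higher, the pore by more than its subunit, with a log2 difference of the ratio of -1.10 (exact p = 0.1, adjusted 0.16) and of -1.17 with the trend removed. Kcnd3 to Kcnd2 overlapped between the groups, at 0.430, 0.353 and 0.336 in TET2KO-labelled and 0.340, 0.352 and 0.240 in WT-labelled libraries (exact p = 0.4, adjusted 0.457). Kcnj12 to Kcnj2 was 0.946 to 1.09 in TET2KO-labelled and 0.460 to 0.787 in WT-labelled libraries (log2 difference 0.69, exact p = 0.1, adjusted 0.16), and the groups overlapped once the trend was removed (0.30). Kcnj5 to Kcnj3 (log2 difference -0.25, exact p = 0.2, adjusted 0.267) overlapped too, though not with the trend removed (-0.74), and Hcn4 to Hcn2 (-0.06, exact p = 0.9, adjusted 0.9) overlapped in both.

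**Figure D3:**
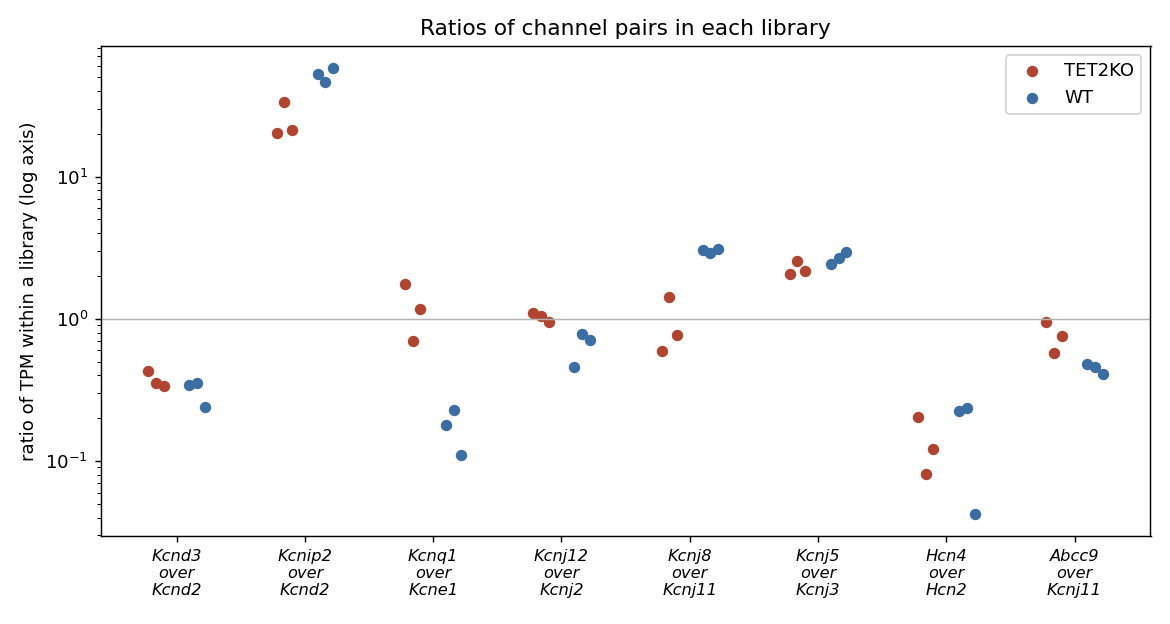
Within-library TPM ratio of 8 pairs of genes on a log axis, with the 3 TET2KO-labelled libraries left of the 3 WT-labelled ones in each pair. The ratios of Kcnq1 to Kcne1, Kcnj8 to Kcnj11 and Kcnip2 to Kcnd2 do not overlap between the groups, while Kcnd3 to Kcnd2 and Hcn4 to Hcn2 do.

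Genes whose products work with these channels but whose symbols fall outside the rule were read from a list of 16, of which 12 were tested. As counted 9 were higher and 1 was lower, and with the trend removed 3 were higher and 1 was lower, with medians of 1.63 and 0.37. Shares among all tested genes were 33.4% higher and 29.4% lower as counted, and 21.9% and 24.3% with the trend removed. The medians of all tested genes were 0.05 and -0.03. Abcc9, the sulfonylurea receptor of ATP-sensitive channels in heart and vascular muscle, averaged 172 ± 75.5 CPM in TET2KO-labelled and 51.5 ± 4.57 CPM in WT-labelled libraries (1.74 ± 0.33, SE; edgeR adjusted p = 0.0065), and was also higher with the trend removed (0.55 ± 0.13). Abcc9 lies 16248 bases from Kcnj8 on the same strand of chromosome 6, and these neighbours were called in opposite directions. Abcc8, the receptor that lies 3759 bases from Kcnj11 on chromosome 7, was higher together with its neighbour as counted (1.70 ± 0.37), and the trend-removed values of both were below 0 (-0.19 for Abcc8) and did not pass. The ratio of Abcc9 to Kcnj11 was 0.947, 0.575 and 0.754 in TET2KO-labelled libraries, against 0.479, 0.456 and 0.409 in WT-labelled libraries (log2 difference 0.73, exact p = 0.1, adjusted 0.16; trend-removed 0.72).

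The transcription factors Irx3 (1.64 ± 0.38, SE) and Irx5 (1.62 ± 0.42) were both higher as counted, and neither passed with the trend removed (Irx3 0.19 ± 0.19, edgeR adjusted p = 0.45, and Irx5 0.17 ± 0.23, edgeR adjusted p = 0.55). As counted Irx5, which is known to hold Kcnd2 down in the inner wall of the mouse ventricle, did not pass without WT replicate 1 (1.53; edgeR adjusted p = 0.051). Nedd4l, a ubiquitin ligase that acts on Kcnq1 channels, was higher as counted (1.81 ± 0.32) and with the trend removed (0.61 ± 0.15), where it did not pass without WT replicate 1 (0.56; edgeR adjusted p = 0.055). Akap9, which anchors protein kinase A to the Kcnq1 channel, was higher as counted (2.05 ± 0.51) and did not pass without WT replicate 3 (1.92; edgeR adjusted p = 0.051). Its trend-removed value of 0.57 ± 0.27 (edgeR adjusted p = 0.12) passed without TET2KO replicate 2 (0.83; edgeR adjusted p = 0.0007). Amigo1, known as a subunit of delayed rectifier channels in neurons, was higher as counted (1.60 ± 0.36) and did not pass with the trend removed (0.17 ± 0.19; edgeR adjusted p = 0.49). Cav3, the muscle caveolin, was the only gene of the list to be lower, as counted (-1.15 ± 0.23, SE; edgeR adjusted p = 0.0065) and with the trend removed (-0.46 ± 0.12; edgeR adjusted p = 0.013), where the call was lost without TET2KO replicate 3 (-0.48; edgeR adjusted p = 0.052) or WT replicate 3 (-0.40; edgeR adjusted p = 0.069). The scaffold Dlg1 (0.53 ± 0.16) lost its call without TET2KO replicate 3 or any single WT replicate (0.46 to 0.57; edgeR adjusted p = 0.062 to 0.092) and with the trend removed (-0.06 ± 0.11; edgeR adjusted p = 0.69). Lrrc55, a subunit of large-conductance channels (2.21 ± 0.77), lost it without TET2KO replicate 1, TET2KO replicate 3, WT replicate 2 or WT replicate 3 (1.70 to 2.28; edgeR adjusted p = 0.078 to 0.11). With the trend removed Lrrc55 was at 1.67 ± 0.69 (edgeR adjusted p = 0.076) and passed without TET2KO replicate 2 (1.91; edgeR adjusted p = 0.016). Vapa, an endoplasmic reticulum protein, did not pass as counted (0.18 ± 0.14; edgeR adjusted p = 0.28), but did under scaling to library totals (0.61; edgeR adjusted p = 0.0087) and with the trend removed (0.59 ± 0.13; edgeR adjusted p = 0.0075).

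Levels per transcript length gave the order of the channel genes within each group. In the TET2KO-labelled libraries Kcnk3 (115 ± 56.2 TPM, SD, n = 3) and Kcnip2 (105 ± 29.3 TPM) were highest, followed by Kcng2 (66.5 ± 22.8 TPM), Kcnj11 (65.2 ± 20.1 TPM) and Kcnj8 (54.6 ± 6.75 TPM), and the mean ± SD ranges of neighbours in that order overlapped. In the WT-labelled libraries Kcnj8 was highest (65.0 ± 3.61 TPM), clear of Kcnip2 (36.8 ± 1.94 TPM), which was clear of Kcnj11 (21.6 ± 2.07 TPM), Kcnj5 (20.4 ± 3.63 TPM), Kcng2 (19.3 ± 3.03 TPM) and Kcnk3 (16.8 ± 2.17 TPM), whose mean ± SD ranges overlapped in that order. Summed TPM of the 102 genes was 784, 444 and 621 in TET2KO-labelled and 253, 274 and 233 in WT-labelled libraries. The 5 highest genes of each library held 62.9 to 67.8% of that sum in TET2KO-labelled and 64.1 to 65.9% in WT-labelled libraries.

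Transcript length went with the fold change among the channel genes as it did over the whole table, less closely. Across the 44 tested channel genes Spearman's rho between transcript length and log2 fold change as counted was 0.35, beside 0.61 across 14341 tested genes; genes of one set of libraries are not independent replicates, and these share depth and preparation. The 21 genes called higher had a median length of 3919 nt, the 3 called lower 2548 nt and the 20 that did not pass 3654.5 nt. Set against all genes of the same length class, 29 of the 44 lay above the class median and 15 at or below it. These classes take no account of GC content, which went with the fold change too. Its rho was 0.33 across the channel genes and 0.26 across all tested genes. With the length and GC trend removed the median of the channel genes was 0.04, beside -0.03 over all tested genes. Kcnq1 at 2.10 and Hcn2 at 2.92 stood far above the median of their class (0.28), Kcne1 at -0.80 lay below that same class, Kcnj8 at -0.87 lay below its own (-0.02), and Kcnj2 at 0.00 lay below the 1.02 of long transcripts like it.

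**Figure D4:**
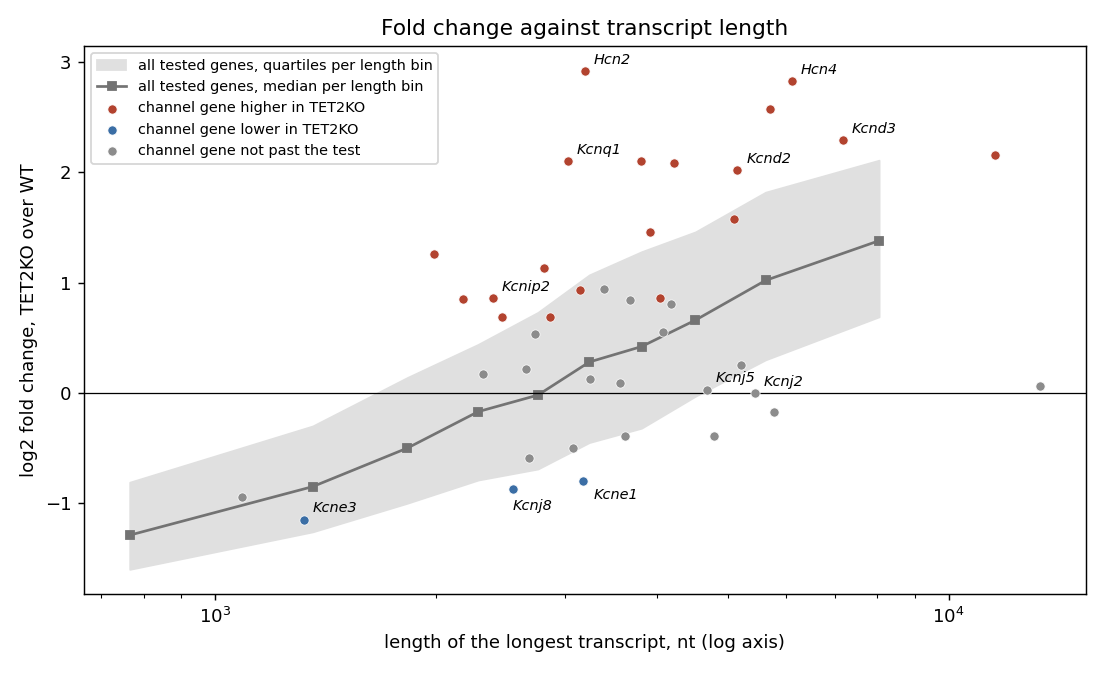
Log2 fold change of TET2KO over WT as counted against transcript length in nt on a log axis, for all tested genes as the median and quartiles of 10 length classes and for the tested channel genes described here as points. Kcnq1, Hcn2 and Kcne1 have lengths between 3029 and 3195 nt and fold changes of 2.10, 2.92 and -0.80.

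Of the 4 transcripts named as lying opposite to a channel gene only Kcnd3os was tested. It shares 165 exonic bases with Kcnd3 (12.2% of its own) and had 0.540, 1.47 and 0.730 CPM in TET2KO-labelled and 2.16, 1.02 and 2.07 CPM in WT-labelled libraries. The groups overlapped (-0.94 ± 0.47, SE; edgeR adjusted p = 0.11), and it passed without TET2KO replicate 2 as counted (-1.43; edgeR adjusted p = 0.0055) and with the trend removed (-1.04; edgeR adjusted p = 0.034).

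The other 58 channel genes fell under the count filter. Of these 11 had 0 reads in all 6 libraries (Kcna10, Kcnf1, Kcnh5, Kcnj9, Kcnk15, Kcnk16, Kcnk18, Kcnmb2, Kcnmb4os1, Kcns2 and Kcnv1), 33 had at most 10 reads in their highest library, and 14 had more than 10 in some library. Kcnc4, a voltage-gated pore, had 15, 4 and 9 reads in TET2KO-labelled and 0, 0 and 0 in WT-labelled libraries, and Kcnd1, the least studied Kcnd pore in heart, had 13, 8 and 7 in TET2KO-labelled and 0, 1 and 1 in WT-labelled libraries. Kcnj4, an inward rectifier, had 24, 6 and 20 reads in TET2KO-labelled and 3, 8 and 2 in WT-labelled libraries. Kcnk1 had 7, 5 and 3 reads in TET2KO-labelled and 0, 0 and 4 in WT-labelled libraries. Kcnc4, Kcnd1 and Kcnj4 were picked after their reads were seen, and none of the 58 entered the 2 fits on all 6 libraries. With no count filter 6 of the 58 passed, with DESeq2 3 did, and 6 did in the as-counted fit that left out TET2KO replicate 2. The filter is not neutral between the groups: 10 of the 44 tested genes passed it in all 3 TET2KO-labelled libraries but not in all WT-labelled ones, against 0 the other way, and 6 of those 10 are among the 21 called higher, among them Kcna2, Kcnab2, Kcnj15, Kcnn4 and Hcn4.

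In the authors' deposited table, which gives an adjusted p for 49 of the channel genes, 25 pass 0.05, of which 22 are higher and 3 lower. For genes in both, 1 call in the authors' deposited table differs from the fit as counted, that of Kcnn4 (log2 fold change 1.22, adjusted p = 0.098). Kcnc1 (2.24, adjusted p = 0.035), a pore of fast delayed rectifiers in neurons, passes in the authors' deposited table and was under the count filter here. Among the genes tested here, 65.0% pass in the authors' deposited table.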

How the data were processed

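RNA was measured in 6 libraries, 3 labelled TET2KO and 3 labelled WT. Whole-number read counts, deposited by the authors without normalization, were the input of every test. The deposited TPM values gave the levels and pair ratios. A further deposited table holds a normalised signal (counts over the authors' size factor of each library), log2 fold changes and p-values, raw and adjusted. Tools named in the submitters' processing notes are STAR 2.5.2b, Trimmomatic 0.36, Subread 1.5.2, featureCounts and DESeq2; GRCm38 and mm10 are the builds named there. No source used here states the annotation release or strand setting. Columns of per-sample values left unmatched to a sample numbered 0.

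Counts were tested with edgeR 4.0.16 in R 4.3.3 (quasi-likelihood F-test, robust; TMM; filterByExpr, which here asks for about 0.375 CPM in 3 libraries; group as the only term), with Benjamini-Hochberg adjustment over all 14370 tested genes at 0.05. SE was worked back from the F statistic. CPM uses TMM library sizes. In the trend-removed fit a smooth surface on log2 transcript length and GC content (mgcv 1.9.3, basis size 6 per axis, prior count 2) was fitted in each library and entered as offsets. Positions, lengths and GC content are of GENCODE M21 (GRCm38), matched by 48970 of the gene IDs and by all 102 channel genes; 174 IDs have no symbol. Scripts were tested on simulated counts. Counts of replicates differed beyond sampling noise. Alternatives were RLE and total library size scaling, no count filter, DESeq2 1.42.0, a replicate block and leaving out each library, plus merged exon length in the trend, added after seeing the data.

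The channel genes, partner list, pairs, markers and named genes were chosen with earlier results of these data known. Named are members with a known cardiac or coronary role, the 5 largest rises and 5 largest falls past the test among the others with groups that do not overlap (4 rises and 1 fall existed), tested partners, and Tet2. Kcnc1, Kcnc4, Kcnd1, Kcnh7, Kcnj4, Kcnj14, Kcnk13 and Kcnd3os fall outside this and were chosen after their values were seen. A few channel genes are counted but not reported by name or drawn here.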

Additional observations from a re-analysis of the deposited data

How the results depend on the processing

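The number of channel genes called higher, 21 as counted, was 8 with the length and GC trend removed, 6 with the trend removed and a replicate block, and 15 to 30 without single libraries. The number called lower, 3 as counted, was 7 with the trend removed, 6 with the trend removed and a replicate block, 1 with scaling to total library size, and 1 to 5 without single libraries. With the trend removed, the 8 higher became 3 to 9 (6, 9, 5 without TET2KO replicates 1, 2, 3 and 4, 5, 3 without WT replicates 1, 2, 3) and the 7 lower became 2 to 8 without single libraries, and 3 were lower with merged exon length in the trend, an alternative chosen after seeing the data. RLE scaling, DESeq2, no count filter and the replicate block alone gave 20, 22, 27 and 18 higher, and 3, 3, 3 and 2 lower.

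Signs turned in 9 genes that passed as counted or under the alternative named. With the trend removed, and in brackets with the trend removed and a replicate block, the log2 fold change was -0.12 (-0.10) for Kcnab2, -0.79 (-0.83) for Kcnj5, -0.18 (-0.18) for Kcnj11, -0.64 (-0.65) for Kcnn1, -0.21 (-0.21) for Kcng2, -0.19 (-0.17) for Abcc8 and -0.06 (-0.06) for Dlg1. With merged exon length it was -0.21 for Kcnn1, -0.57 for Kcnn2, -0.27 for Kcnn4, -0.07 for Abcc8 and -0.07 for Dlg1. The cause of these changes was not tested.

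The replicate numbers did not pair the libraries: deviations of libraries with the same number correlated at 0.0386, -0.231 and -0.0126, and none of the 3 TET2KO-labelled libraries correlated best with its own number. Depth limits the 58 untested genes, of which 44 had at most 10 reads in any library. With 3 libraries a group, the pair ratios could not go below an exact p of 0.1.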
